A study of Homo sapiens with 6 samples.

Results

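The core of the circadian clock was followed in 12Z cells, an immortalised human line from endometriosis, a disease in which endometrium-like tissue grows outside the womb. The gene set held the period genes PER1, PER2 and PER3, the cryptochrome genes CRY1 and CRY2, the activators CLOCK and ARNTL (written BMAL1 in the deposited tables), the output factor DBP, and BHLHE40 and BHLHE41. Its 10 members were taken by gene symbol, and all 10 were found among the 60419 genes of the tables and among the 16395 that passed the filter on low counts. The Myrrh group of 3 libraries came from wild-type 12Z cells given 100 µg/mL of Myrrh extract in DMSO for 12 h, and 3 came from cells given DMSO, the solvent, as control. All cells were kept in medium with 10% charcoal-stripped serum, and the protocols in the labels name no step that sets the cells to a common phase. Only that time was sampled, so the phase and amplitude of a rhythm were not measured. The labels do not say that the libraries of a group came from separate cultures, so p-values describe the spread between these libraries, which may be technical.

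The clock is a feedback loop of transcription. CLOCK pairs with the protein of ARNTL, or its paralog NPAS2 takes the place of CLOCK, and the pair binds E-boxes in DNA and switches on the PER and CRY genes, whose proteins then return to the nucleus and block the pair. BHLHE40 and BHLHE41 bind E-boxes as repressors, DBP drives genes through another element, the D-box, and in a second loop the REV-ERB receptors (NR1D1, NR1D2) repress ARNTL while the ROR receptors activate it. These roles are background from the study of many tissues and were not measured here.

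In the Myrrh libraries ARNTL was 2.30-fold higher and CRY1, BHLHE40 and BHLHE41 were modestly higher, whereas DBP, PER1, PER2, PER3 and CLOCK were lower. In edgeR's quasi-likelihood test, with p-values adjusted by Benjamini-Hochberg across the 16395 genes, 9 of the 10 members passed an adjusted p of 0.05 (were called), 4 of them higher and 5 lower in Myrrh. CRY2 was not called. Most genes differed between the groups, as 78.4% of all genes tested were called, 39.3% higher and 39.1% lower. The share of members called, 90.0%, therefore lies near the share of all genes. The groups did not overlap in CPM for 9 of 10 members, against 80.2% of all genes tested. CPM is the read count scaled to library size. The median log2 fold change was -0.00 over the members and -0.02 over all genes tested. The median size regardless of direction was 0.41 over the members and 0.61 over all genes tested. Of the 10 members, 2, ARNTL and DBP, changed by at least 2-fold, against 4865 of the 16395 genes tested.

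**Figure D1:**
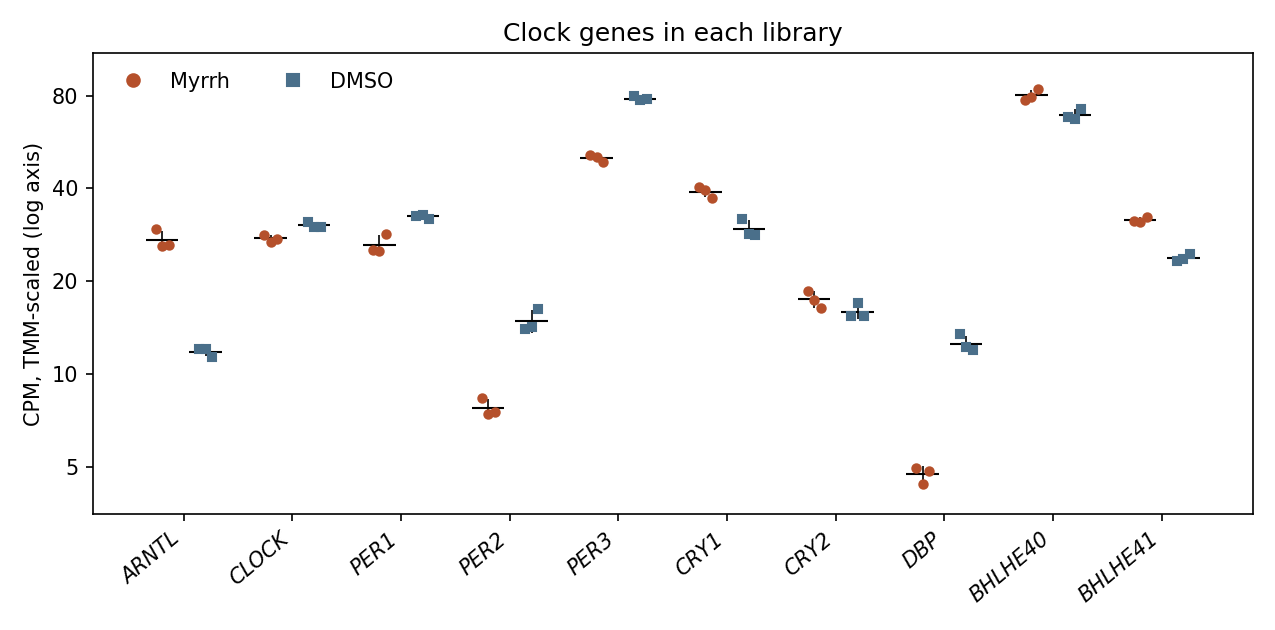
CPM (TMM-scaled, log axis) of the 10 clock genes in each of 3 Myrrh libraries (circles) and 3 DMSO libraries (squares), with the mean and SD as black lines. The groups lie farthest apart for ARNTL, higher in Myrrh, and for DBP and PER2, lower in Myrrh, and they overlap for CRY2 alone.

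Of the activators among the members, ARNTL was clearly higher, while CLOCK was lower by less, a call that most settings lost. ARNTL, a partner in the activating pair, had 29.4, 26.0 and 26.1 CPM in the Myrrh libraries, against 12.0, 12.0 and 11.4 CPM in the DMSO libraries. Every Myrrh library lay above every DMSO library by a wide margin. The log2 fold change, Myrrh against DMSO here and throughout, was 1.20 ± 0.08 (SE; edgeR adjusted p = 1.42e-13), and 92.2% of all genes tested had a lower one. It was between 1.06 and 1.32 under all 15 other settings tried and was called in each. CLOCK had 28.3, 26.8 and 27.5 CPM in Myrrh, against 31.2, 30.1 and 29.9 CPM in DMSO. The groups were separate, but the gap was small, a log2 fold change of -0.14 ± 0.06 (SE; edgeR adjusted p = 0.0441). The CLOCK call was lost under 9 of 15 settings, among them DESeq2 (adjusted p = 0.0924) and leaving out Myrrh replicate 2 or 3 or any of the DMSO replicates (edgeR adjusted p = 0.0572 to 0.144), with the direction kept. With the replicate number as a block it was also lost (edgeR adjusted p = 0.0526). On the authors' log2(TPM + 1) values CLOCK was lower by more, with a difference of -0.35. In GRCh38, ARNTL lies on chromosome 11 at 13276652 to 13387266 and CLOCK on chromosome 4 at 55427903 to 55547138. CLOCK overlaps exons of TMEM165 on the other strand, a gene with 808, 781 and 609 counts in Myrrh and 1483, 1809 and 1866 in DMSO. The sources used here do not give the strand setting of the counting, and the part of TMEM165 reads in the CLOCK values was not tested.

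NPAS2, the paralog that can stand in for CLOCK, showed the largest change among the partner and receptor genes of the clock. It had 24.5, 21.4 and 25.0 CPM in Myrrh, against 6.27, 6.83 and 7.01 CPM in DMSO. All Myrrh values were well above all DMSO values, a log2 fold change of 1.81 ± 0.09 (SE; edgeR adjusted p = 4.64e-16). ARNTL2, the paralog of ARNTL, had 63.2, 56.2 and 63.4 CPM in Myrrh, against 43.4, 45.2 and 45.6 CPM in DMSO (log2 fold change 0.44 ± 0.06, SE; edgeR adjusted p = 1.68e-07). Levels of different genes were set side by side only as TPM, a measure that corrects for transcript length. Within a library the CLOCK/NPAS2 ratio of TPM was 0.301, 0.386 and 0.243 in Myrrh, against 1.773, 1.303 and 1.812 in DMSO. On TPM, NPAS2 was thus the more abundant of the pair in each Myrrh library and CLOCK in each DMSO library. The Myrrh order rests on the length correction, as CLOCK had 674, 598 and 585 counts there and NPAS2 583, 479 and 531. In these libraries NPAS2 had 15.2, 9.11 and 17.5 TPM, a wider spread than in CPM. The ARNTL/ARNTL2 ratio was 0.903, 0.846 and 0.715 in Myrrh, against 0.654, 0.514 and 0.527 in DMSO. Both ratios separated the groups (two-sided exact permutation test, p = 0.1 each and 0.14 adjusted over 7 ratios), where 0.1 is the smallest p that 3 libraries against 3 can give.

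All 3 period genes, which encode the repressors that cells make and destroy in each cycle, were lower in Myrrh. PER2 had 8.34, 7.44 and 7.52 CPM in Myrrh, against 14.0, 14.2 and 16.3 CPM in DMSO. The groups were far apart, with a log2 fold change of -0.93 ± 0.10 (SE; edgeR adjusted p = 1.75e-09), and PER2 fell by 47.6%. PER3 had 51.4, 50.6 and 48.7 CPM in Myrrh, against 79.7, 77.2 and 77.9 CPM in DMSO. It fell by 35.8%, a log2 fold change of -0.64 ± 0.05 (SE; edgeR adjusted p = 2.9e-11). PER1 had 25.3, 25.1 and 28.5 CPM in Myrrh, against 32.5, 32.9 and 31.9 CPM in DMSO. The third Myrrh library was the nearest to the DMSO range but still below it, and PER1 fell by 19.0% (log2 fold change -0.30 ± 0.07, SE; edgeR adjusted p = 0.000195). PER2 and PER3 were called under all 15 other settings, and PER1 under all except a test against a log2 fold change of 0.5.

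The size of the change differed among the period genes in the counts. On TPM PER2 changed by more than PER1 and PER3, though no ratio among them passed the adjusted threshold. The 95% interval of the log2 fold change was -1.13 to -0.73 for PER2, -0.75 to -0.53 for PER3 and -0.44 to -0.17 for PER1, so that PER2 and PER3 overlapped slightly and PER1 stood apart. On log2(TPM + 1) the differences were -0.61 for PER2, -0.46 for PER3 and -0.42 for PER1. There the added 1 weighs most on PER2, which had 1.72 TPM in Myrrh and 3.15 TPM in DMSO. The PER1/PER2 ratio of TPM was 5.44, 5.34 and 6.73 in Myrrh, against 4.04, 4.63 and 4.41 in DMSO, and the PER2/PER3 ratio was 0.122, 0.133 and 0.122 in Myrrh, against 0.155, 0.159 and 0.178 in DMSO. Both ratios separated the groups, at the smallest p possible (two-sided exact permutation test, p = 0.1; 0.14 adjusted over 7 ratios). The PER1/PER3 ratio overlapped between groups, at 0.732 ± 0.0821 in Myrrh and 0.716 ± 0.0815 in DMSO (SD, n = 3; two-sided exact permutation test, p = 0.8, and 0.8 adjusted). None of the 3 ratios passed the adjusted threshold. PER3 was the most abundant of the 3 in every library and PER2 the least. In GRCh38, PER1 lies on chromosome 17 at 8140472 to 8156506, PER2 on chromosome 2 at 238244038 to 238290102 and PER3 on chromosome 1 at 7784320 to 7845177. PER1 shares exon sequence with AC129492.3, annotated as protein-coding on the same strand, which had 35.6 to 57.7 counts in Myrrh and 15.8 to 21.9 in DMSO, few beside the 560 to 606 and 772 to 947 of PER1.

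The promoters of the period genes hold the elements through which the loop is known to act, and they are shown because these 3 genes were all called lower. Genes called higher, CRY1, BHLHE40 and BHLHE41, hold such elements too. The stretches come from RefSeq windows on GRCh38.p14, which run from 250 bases before to 50 bases after a transcript start. They were read 5′ to 3′ on the gene's strand, with the motif in capitals. The motif of PER1 is an E-box, that of PER2 is the related E′-box, and the D-boxes of PER3 and PER2 come after them, the one of PER2 spanning its start.
PER1, chr17:8152532-8152617: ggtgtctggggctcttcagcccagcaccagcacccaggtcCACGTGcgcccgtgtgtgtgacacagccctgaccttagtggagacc
PER2, chr2:238288762-238288847: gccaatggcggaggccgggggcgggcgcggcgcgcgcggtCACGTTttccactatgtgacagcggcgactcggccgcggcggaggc
PER3, chr1:7784074-7784161: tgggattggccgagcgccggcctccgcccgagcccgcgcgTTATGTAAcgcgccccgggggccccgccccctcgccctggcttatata
PER2, chr2:238288595-238288624: cccgctgcggcTTACGTAAccgccgccggc

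The search covered both strands of 35116 windows of 27305 genes, with 14 windows for the 10 members. The D-box, searched as TTATGTAA and TTACGTAA, stood in windows of 2 members, PER2 and PER3, and in those of 1.27% of all genes. In PER3 it began 177 bases before the start, and in PER2 3 bases before it. The E-box CACGTG stood in windows of 3 members (PER1, BHLHE40 and BHLHE41) and of 8.77% of all genes, and the E′-box CACGTT in windows of 4 (PER2, CLOCK, CRY1 and CRY2) and of 6.44% of all genes. The members have more windows per gene than genes at large, 14 for 10 against 35116 for 27305, and more windows give more chances of a match. ARNTL held the half-site AGGTCA, the core of the element that REV-ERB and ROR receptors bind, as did CRY2 and PER1, against 16.5% of all genes. The heat shock unit GAANNTTC (8.21% of all genes), the ATF4 composite element TGATGNAA (4.46%) and the cAMP response element TGACGTCA (2.25%) were in no member's window, and the DBP window held none of the motifs searched. A match describes the letters and shows no binding, and elements outside these windows were not searched. The following stretches hold the ARNTL half-site, the BHLHE40 and BHLHE41 E-boxes and the CRY1 E′-box, the last as its reverse complement. Each of them meets an annotated exon of its gene, as does the D-box stretch of PER2, while the other PER stretches above meet none.
ARNTL, chr11:13277810-13277837: aggcagaaagtAGGTCAgggacggaggt
BHLHE40, chr3:4979187-4979208: tccaaCACGTGagactcatgtg
BHLHE41, chr12:26125069-26125096: ggtacgttccgCACGTGagctgggtgct
CRY1, chr12:107093622-107093649: cacacttcagaAACGTGaggtgccggtg

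The cryptochromes, the partners of the PER proteins in repression, went the other way from the period genes or did not pass the test. CRY1 had 40.5, 39.6 and 37.2 CPM in Myrrh, against 31.9, 28.4 and 28.2 CPM in DMSO. All Myrrh values were above all DMSO values, a log2 fold change of 0.41 ± 0.07 (SE; edgeR adjusted p = 3.08e-06). CRY2 had 18.6, 17.4 and 16.3 CPM in Myrrh, against 15.4, 16.9 and 15.4 CPM in DMSO. The groups overlapped, and the log2 fold change of 0.13 had a 95% interval of -0.03 to 0.30 (edgeR adjusted p = 0.129). Without Myrrh replicate 3 CRY2 was called (0.19; edgeR adjusted p = 0.0458), and with library totals in place of TMM scaling its value was -0.01. The CRY1/CRY2 ratio of TPM overlapped between groups, at 3.04 ± 0.187 in Myrrh and 2.81 ± 0.365 in DMSO (SD, n = 3; two-sided exact permutation test, p = 0.5, and 0.583 adjusted over 7 ratios). In GRCh38, CRY1 lies on chromosome 12 at 106991364 to 107093829 and CRY2 on chromosome 11 at 45847118 to 45883248.

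DBP, a PAR bZIP factor whose mRNA follows the clock closely in many tissues, showed the largest change of the 10. It had 4.94, 4.40 and 4.84 CPM in Myrrh, against 13.4, 12.2 and 12.0 CPM in DMSO. No Myrrh library came near the DMSO range. DBP fell by 62.3%, a log2 fold change of -1.41 ± 0.11 (SE; edgeR adjusted p = 4.2e-12), and it was called under all 15 other settings, at -1.55 to -1.29. Of all genes tested, 83.0% had a smaller change in size. The gene lies on chromosome 19 at 48630030 to 48637438 in GRCh38, and it overlaps exons of SPHK2 on the other strand. SPHK2 was at 501, 434 and 413 counts in Myrrh and 249.0, 274.9 and 255.3 in DMSO, the opposite direction to DBP, while DBP was at 118, 98.1 and 103 counts in Myrrh and 319, 352 and 333 in DMSO.

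BHLHE40 and BHLHE41 (DEC1 and DEC2), E-box repressors that also respond to hypoxia and other signals, were slightly higher in Myrrh. BHLHE40 had 77.4, 79.0 and 83.9 CPM in Myrrh, against 68.4, 67.3 and 72.6 CPM in DMSO. The groups were separate but close, with a log2 fold change of 0.21 ± 0.05 (SE; edgeR adjusted p = 0.0012). This call was lost with library totals (0.06; edgeR adjusted p = 0.305) and with a filter of 5 CPM in 3 libraries (0.11; edgeR adjusted p = 0.0678). BHLHE41 had 31.4, 31.1 and 32.4 CPM in Myrrh, against 23.2, 23.6 and 24.4 CPM in DMSO. The libraries of each group were close together, and the log2 fold change was 0.41 ± 0.06 (SE; edgeR adjusted p = 2.15e-06). On the authors' log2(TPM + 1) values, however, BHLHE41 differed by 0.10 and was not called (limma adjusted p = 0.409), with 13.1, 10.9 and 13.7 TPM in Myrrh and 12.6, 10.6 and 11.6 TPM in DMSO. The BHLHE40/BHLHE41 ratio of TPM was 3.04, 3.30 and 2.91 in Myrrh, against 2.43, 2.91 and 2.88 in DMSO, so that the lowest Myrrh ratio was barely above the highest DMSO ratio (two-sided exact permutation test, p = 0.1; 0.14 adjusted over 7 ratios). BHLHE40 lies on chromosome 3 at 4979116 to 4985323 and BHLHE41 on chromosome 12 at 26120026 to 26125127 in GRCh38. BHLHE41 overlaps exons of SSPN on the other strand, which had 208 to 251 counts in Myrrh and 411 to 521 in DMSO. BHLHE40 overlaps its antisense gene BHLHE40-AS1, which had 4.39 to 8 counts in Myrrh and 13.6 to 32.6 in DMSO.

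**Figure D2:**
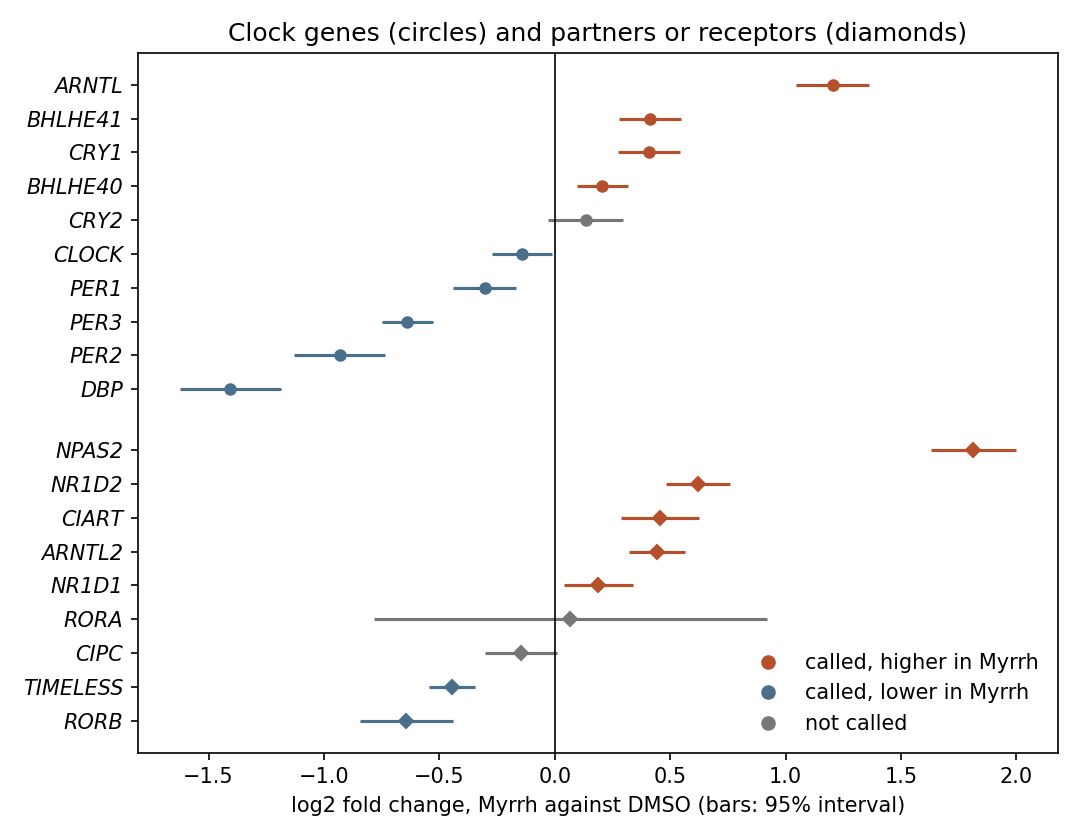
Log2 fold change, Myrrh against DMSO, with its 95% interval for the 10 clock genes (circles, upper block) and the 9 tested partner, paralog and receptor genes (diamonds, lower block), coloured by the edgeR call at an adjusted p of 0.05. ARNTL and NPAS2 stand highest in their blocks at 1.20 and 1.81, DBP stands lowest at -1.41, and the intervals of CRY2, RORA and CIPC cross 0.

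On the length-corrected scale BHLHE40 was the most abundant member in both groups, at 38.5 ± 2.28 TPM in Myrrh and 31.6 ± 1.46 TPM in DMSO (SD, n = 3), and PER2 the least, at 1.72 ± 0.122 TPM in Myrrh and 3.15 ± 0.236 TPM in DMSO. In Myrrh the order below BHLHE40 was CRY1, ARNTL, PER3, BHLHE41, PER1, CRY2, DBP, CLOCK and PER2, with neighbours CRY1 and ARNTL, and PER3 and BHLHE41, overlapping in their ranges. In DMSO it was PER3, CRY1, PER1, DBP, BHLHE41, ARNTL, CRY2, CLOCK and PER2, with overlaps between the neighbours PER1 and DBP, ARNTL and CRY2, and CRY2 and CLOCK. ARNTL stood at 18.1 ± 2.95 TPM in Myrrh and 7.14 ± 0.633 TPM in DMSO, and DBP at 4.94 ± 0.392 TPM in Myrrh and 13.5 ± 0.657 TPM in DMSO. ARNTL was thus above DBP in every Myrrh library and below it in every DMSO library.

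Summed by role, the period genes came to 27.1, 23.4 and 25.6 TPM in Myrrh, against 35.1, 35.5 and 37.7 TPM in DMSO. The 2 cryptochromes came to 29.6, 26.4 and 25.5 TPM in Myrrh, against 23.9, 22.7 and 22.8 TPM in DMSO. The activators CLOCK, NPAS2, ARNTL and ARNTL2 together came to 65.0, 48.1 and 61.2 TPM in Myrrh, against 30.03, 28.02 and 28.41 TPM in DMSO. None of these sums overlapped between groups, and neither did 80.2% of all genes tested, taken singly in CPM. The second Myrrh library had the lowest sum of period genes of the 6 and the lowest sum of activators within its group. As these genes were chosen with earlier results known, the sums are given without a test.

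**Figure D3:**
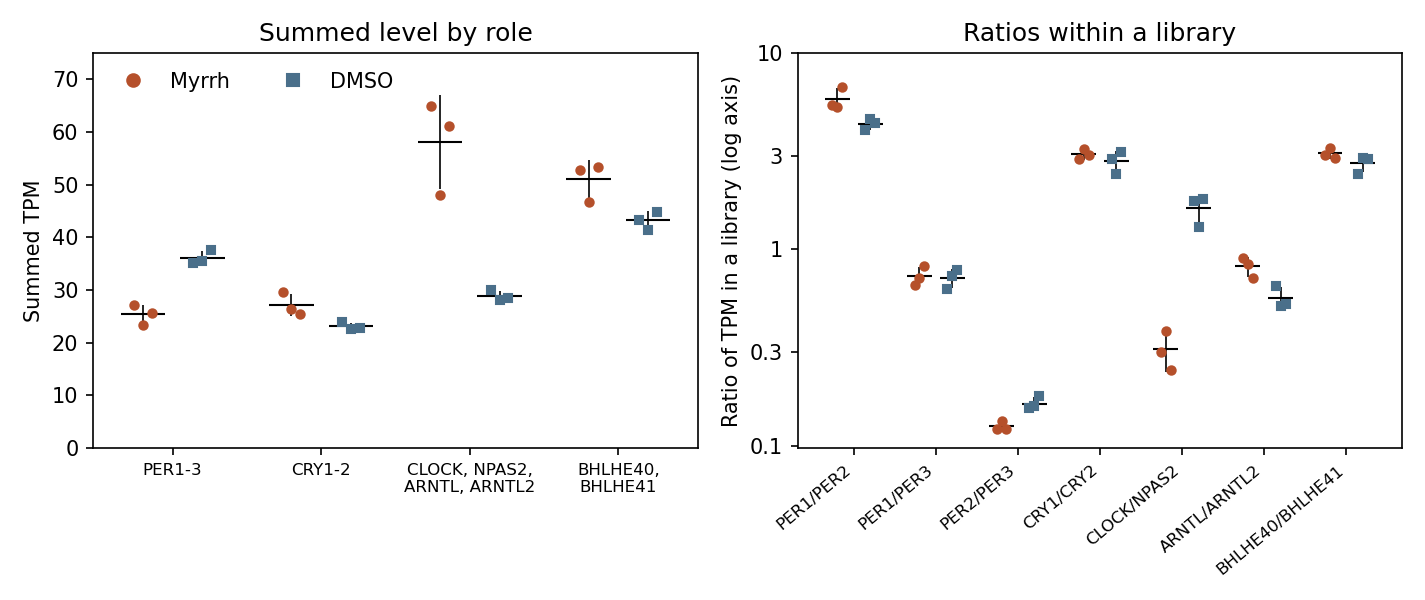
Left, summed TPM of the period genes, the cryptochromes, the 4 activator genes and the BHLHE40 pair in each Myrrh (circles) and DMSO (squares) library; right, ratios of TPM between 2 genes within a library on a log axis, with means and SD as black lines. The activators sum to 58.1 ± 8.90 TPM in Myrrh and 28.8 ± 1.07 TPM in DMSO, and the CLOCK/NPAS2 ratio lies below 1 in Myrrh and above 1 in DMSO.

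Among 11 partners, paralogs and nuclear receptors of the clock, 9 were tested, of which 5 were called higher and 2 lower in Myrrh, against 39.3% higher and 39.1% lower among all genes tested. Their median log2 fold change was 0.19, against -0.02 over all genes. Beside NPAS2 and ARNTL2, NR1D2, a REV-ERB repressor of ARNTL, had 82.4, 68.5 and 80.4 CPM in Myrrh, against 47.1, 49.7 and 53.6 CPM in DMSO. It rose by 0.62 ± 0.07 on the log2 scale (SE; edgeR adjusted p = 2.45e-08), so that ARNTL and this repressor were higher in the same libraries. CIART, which encodes a repressor of the CLOCK and ARNTL pair, rose by 0.46 ± 0.08 (SE; edgeR adjusted p = 1.67e-05). NR1D1, the other REV-ERB gene, was at 25.0, 24.8 and 26.2 CPM in Myrrh and 20.5, 24.2 and 21.8 CPM in DMSO. Its groups were separate, but its log2 fold change of 0.19 (edgeR adjusted p = 0.0214) was not called under 9 of 15 settings, among them without Myrrh replicate 3, DMSO replicate 1 or DMSO replicate 3 (edgeR adjusted p = 0.0503 to 0.152). TIMELESS, whose product in mammals serves DNA replication forks, fell by 0.45 ± 0.05 (SE; edgeR adjusted p = 5.39e-09). RORB, a ROR receptor, was lower in counts at 7.88, 8.16 and 7.98 CPM in Myrrh and 13.6, 11.3 and 12.7 CPM in DMSO (log2 fold change -0.64 ± 0.10, SE; edgeR adjusted p = 1.42e-06). On log2(TPM + 1) it differed by -0.08 and was not called (limma adjusted p = 0.592). RORA was at 0.433 CPM in Myrrh and 0.411 CPM in DMSO and was not called, nor was CIPC, an inhibitor of CLOCK (-0.15; edgeR adjusted p = 0.0796). PASD1 had 0 counts in all 6 libraries and was not tested.

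Of 26 kinases, ubiquitin ligases and cofactors that act on clock proteins, all tested, 14 were called higher and 4 lower, against 39.3% and 39.1% of all genes tested, with a median log2 fold change of 0.16, against -0.02. The 4 highest were CSNK2A2, a catalytic subunit of casein kinase 2 (1.07 ± 0.06, SE), KDM5A, a histone demethylase that acts as a coactivator of CLOCK and ARNTL in mice (0.95 ± 0.05), the deacetylase gene SIRT1 (0.92 ± 0.06) and USP2, a deubiquitinase (0.74 ± 0.30). USP2 was near the detection limit, at 1.02 CPM in Myrrh and 0.612 CPM in DMSO, and was not called under 9 of 12 settings that tested it, among them without Myrrh replicate 1 (edgeR adjusted p = 0.131) and without each of the DMSO replicates (edgeR adjusted p = 0.0524 to 0.114). The kinases that mark PER proteins for destruction differed among themselves. Of the casein kinase 1 genes, CSNK1A1 was 0.56 ± 0.05 higher on the log2 scale (SE; edgeR adjusted p = 5.51e-10). CSNK1D fell by 0.53 ± 0.05 on the log2 scale, at 133, 131 and 133 CPM in Myrrh and 190, 196 and 187 CPM in DMSO (edgeR adjusted p = 3.89e-10). CSNK1E was 0.15 ± 0.05 higher (SE; edgeR adjusted p = 0.0124), at 172 ± 4.47 CPM in Myrrh and 155 ± 6.58 CPM in DMSO (SD, n = 3), a call lost, among other settings, without DMSO replicate 3 (edgeR adjusted p = 0.0766), on log2(TPM + 1) (limma adjusted p = 0.161) and with library totals (0.01). FBXW11, a subunit of the ligase for PER proteins, rose by 0.68 ± 0.06 (SE; edgeR adjusted p = 2.2e-10), while its paralog BTRC was at 0.15 and not called (edgeR adjusted p = 0.0602), though it was called without Myrrh replicate 1 (0.21; edgeR adjusted p = 0.0173) and on log2(TPM + 1) (0.38; limma adjusted p = 0.00995). The other genes at the low end were NONO, an RNA-binding partner of PER (-0.44 ± 0.05, SE), the phosphatase gene PPP1CA (-0.37 ± 0.05) and the pseudogene FBXL21P (-1.22 ± 0.42), the last at 0.220 CPM in Myrrh and 0.522 CPM in DMSO. DESeq2 did not call FBXL21P (adjusted p = 0.0781).

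Of 12 relatives of DBP and outputs of the clock, 11 were tested, of which 6 were called higher and 5 lower, against 39.3% and 39.1% of all genes tested (median log2 fold change 0.51, against -0.02). NFIL3, the repressor that competes with DBP for D-boxes, had 178.6, 179.3 and 165.7 CPM in Myrrh, against 39.7, 41.2 and 41.9 CPM in DMSO. It rose by 2.09 ± 0.05 on the log2 scale (SE; edgeR adjusted p = 4.13e-22), in the opposite direction to DBP. TEF, a PAR bZIP activator like DBP, had 13.5, 13.6 and 15.2 CPM in Myrrh, against 17.4, 17.0 and 18.8 CPM in DMSO (-0.33 ± 0.08, SE; edgeR adjusted p = 0.000628), a call lost on log2(TPM + 1) (limma adjusted p = 0.0595). HLF, the third PAR bZIP gene, had 3, 4 and 7 counts in Myrrh and 0 in each DMSO library and was not tested. KLF15, a zinc finger factor of metabolism, was at 4.66 ± 0.766 CPM in Myrrh and 0.388 ± 0.0377 CPM in DMSO (SD, n = 3), a log2 fold change of 3.57 ± 0.24 (SE; edgeR adjusted p = 3.74e-13). On log2(TPM + 1), where the added 1 weighs on low levels, it differed by 1.56. NOCT, the phosphatase gene nocturnin, rose by 2.27 ± 0.13 (SE; edgeR adjusted p = 6.25e-15). NAMPT, the rate-limiting enzyme of NAD salvage, was at 807 ± 11.8 CPM in Myrrh and 263 ± 10.7 CPM in DMSO (SD, n = 3; 1.62 ± 0.06, SE; edgeR adjusted p = 2.33e-19). ID2, an inhibitor of helix-loop-helix factors, was at 8.05, 12.2 and 8.22 CPM in Myrrh and 33.0, 32.4 and 31.6 CPM in DMSO (-1.77 ± 0.12, SE; edgeR adjusted p = 1.86e-08). E4F1 (-0.44 ± 0.07, SE) and the mitotic brake WEE1 (-0.28 ± 0.06) were lower by less. On TPM their order was reversed, with WEE1 at 16.7 in Myrrh and 25.9 in DMSO and E4F1 at 18.1 and 21.3. With library totals, which move the median of all genes to -0.16, the 3 lists together had 21 genes higher and 17 lower, against 25 and 11 with TMM scaling. Over all genes tested the numbers were 5378 higher and 7479 lower with library totals, against 6436 and 6418 with TMM scaling.

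**Figure D4:**
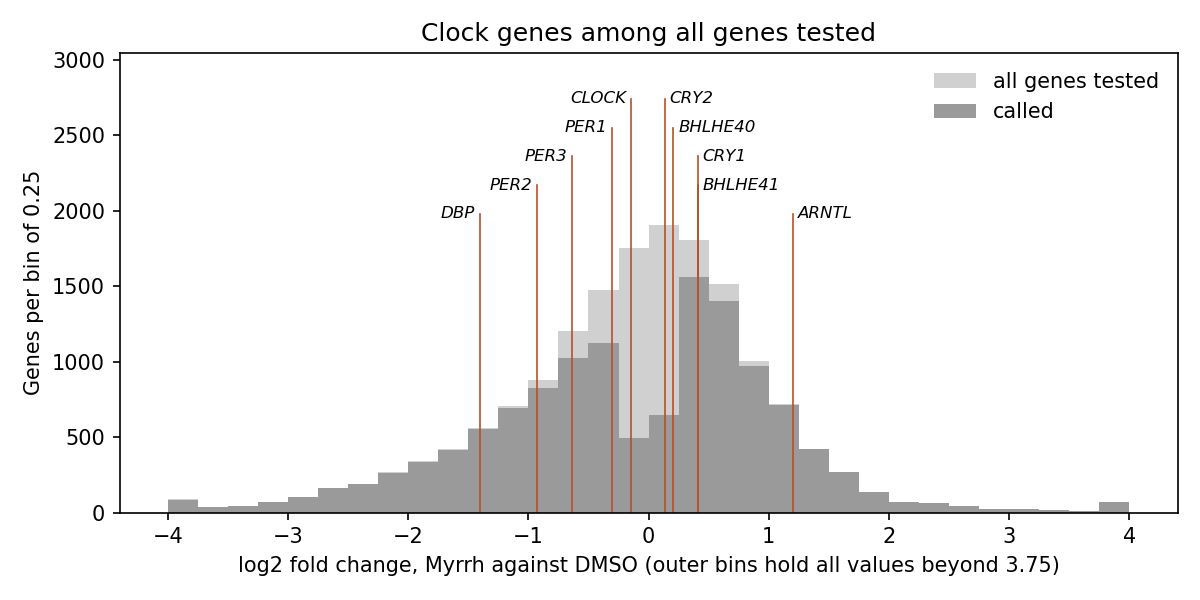
Number of genes per bin of log2 fold change (Myrrh against DMSO) among the 16395 genes tested, with called genes in darker grey and the 10 clock genes as vertical lines. DBP at -1.41 and ARNTL at 1.20 lie toward the flanks, and the other 8 lie between -0.93 and 0.41.

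By distance over the 6 libraries in centred log2(TPM + 1), the genes most like ARNTL among 13447 compared were TMEM41B (0.0654), ALDH1A2 (0.104) and TRAF6 (0.141). TMEM41B, which encodes an ER membrane protein, was at 53.8, 43.1 and 43.2 TPM in Myrrh and 21.4, 18.4 and 19.8 TPM in DMSO. The genes most like DBP were DDR1 (0.0835), DIP2A (0.107) and BTN3A2 (0.107). DDR1, a collagen receptor kinase, was at 11.4, 9.69 and 10.7 TPM in Myrrh and 27.2, 26.3 and 26.6 TPM in DMSO.

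The libraries held 22454783 to 24531493 estimated counts in Myrrh and 22592816 to 27588151 in DMSO, and the members had 98.1 to 2224 counts per library, so none rested on few reads. The keratin genes KRT8, KRT18 and KRT19 and VIM were high in both groups and called lower in Myrrh, with log2 fold changes of -0.54, -0.31, -0.64 and -0.44. The other tested epithelial and mesenchymal markers were called higher, KRT7 by 0.53, EPCAM by 1.13, CDH2 by 0.25, FN1 by 0.31 and ZEB1 by 0.78. Of these, KRT7 (8.91 TPM in Myrrh, 5.84 in DMSO) and EPCAM (2.54 and 1.12) were low beside KRT8 (548 and 771). CDH1 was nearly absent, at 0.293 TPM in Myrrh and 0.133 TPM in DMSO. Of 4 endothelial and 5 leukocyte markers, all except CD68, a lysosomal protein also made outside leukocytes, were at or near 0. CD68 was at 65.3 TPM in Myrrh and 29.2 TPM in DMSO and was called higher (log2 fold change 0.84; edgeR adjusted p = 6.36e-11). The 4 stromal markers PDGFRB, THY1, PDGFRA and DCN were all called lower, and their sum was 108 to 138 TPM in Myrrh and 237 to 260 TPM in DMSO. The 4 smooth muscle markers summed to 23.1 to 24.0 TPM in Myrrh and 38.2 to 39.8 TPM in DMSO, with 3 called lower. ACTA2 made up most of both sums, at 21.9 TPM in Myrrh and 37.2 TPM in DMSO. DES (0.20 TPM in Myrrh, 0.57 in DMSO) and MYH11 (0.18 and 0.23) were near 0. CNN1 went the other way and was not called (log2 fold change 0.42). The part of these markers in the clock gene values was not tested. In bulk RNA, fewer cells of a kind and less RNA per cell cannot be told apart.

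**Figure D5:**
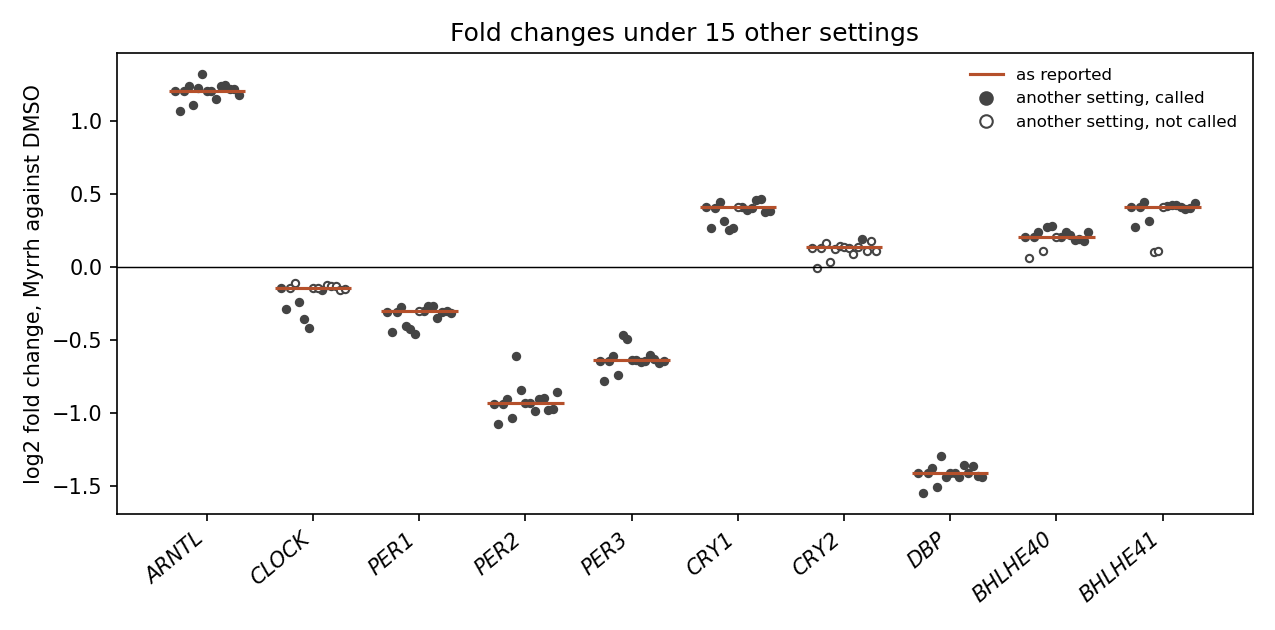
Log2 fold change (Myrrh against DMSO) of each clock gene as reported (line) and under 15 other settings (points; filled where called at an adjusted p of 0.05, open where not). ARNTL, PER2, PER3 and DBP were called in every setting, whereas CLOCK was called in 6 of 15.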

How the data were processed

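Total RNA of 6 libraries, 3 per group, each from 1.5 µg, was made into libraries with an Illumina TruSeq RNA kit, per the labels' protocols. The authors deposited estimated counts per gene, not scaled between libraries, and log2(TPM + 1) values. The submitters' processing notes name STAR, RSEM 1.3.1 and the GRCh38 build. The sources used here do not give the annotation release, trimming or strand setting. Estimated counts were rounded, filtered with filterByExpr, scaled by TMM and tested with edgeR 4.0.16 (glmQLFit, robust, two-sided; R 4.3.3), Myrrh against DMSO over all 6 libraries, with Benjamini-Hochberg adjustment over 16395 genes and a threshold of 0.05. SE is the log2 fold change over the square root of F, and 95% intervals use the fit's degrees of freedom. CPM use TMM-scaled library sizes. TPM was obtained by undoing the log. Within-library ratios were tested by exact permutation (scipy 1.17.1). Gene positions and overlaps were looked up by Ensembl identifier in GENCODE 29 (GRCh38), and promoter windows from RefSeq (GRCh38.p14), matched by symbol for all 10 members. Alternatives used DESeq2 1.42.0, limma 3.58.1 with a mean of at least 0.5 TPM, other scalings, filters and pseudocounts, glmTreat, a replicate block and each library left out. Within a group, counts differed beyond sampling noise (chi-square 3.86 to 9.43 per degree of freedom). Members, lists and tests were chosen with earlier results of these data known. The genes named were all members and partners, up to 4 called genes at each end of the other lists, a few more kinases and ligases of PER chosen after their values were seen, and the 3 nearest genes to the highest and lowest member; some listed genes are not reported here.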

Additional observations from a re-analysis of the deposited data

How the results depend on the processing

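Over 15 other settings, the 10 members gave 150 values, of which 132 kept their side of the threshold, 17 lost the call and 1 gained it. Direction was kept in all except CRY2 with library totals, at -0.01 and not called in either. ARNTL (1.06 to 1.32), DBP (-1.55 to -1.29), PER2 (-1.07 to -0.61) and PER3 (-0.78 to -0.46) were called throughout. Against a log2 fold change of 0.5 (glmTreat), 7483 genes were called, 3472 higher and 4011 lower; of the members 1 was called higher and 3 lower, and of the related clock genes 13 higher and 2 lower. The related genes called lower numbered 17 with library totals and 7 on log2(TPM + 1) or log2(TPM + 0.1). Over all genes, 7479 were called lower with library totals, 5254 on log2(TPM + 1) and 5189 on log2(TPM + 0.1), against 6418 as reported. Of the related genes, GSK3B, at -0.09 and not called, was called higher on log2(TPM + 1) (0.64) and on log2(TPM + 0.1) (0.67); the cause was not tested. Replicate numbers are shared by the groups, and the labels do not say whether they pair libraries. Deviations of same-numbered libraries correlated at -0.0596 to 0.0361 across genes, against -0.0928 to 0.102 for libraries with different numbers. With 3 libraries per group these values cannot settle whether libraries were paired. With a replicate block 12782 genes were called, and of the members 4 higher and 4 lower, without CLOCK. Depth limits genes with few counts: RORA and USP2 had standard errors of 0.41 and 0.30 on the log2 scale, against 0.05 to 0.11 for the members.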
